A study of Bos indicus with 6 samples.

Results

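The isthmus transcripts described here belong to the prostaglandin pathway: the enzymes that make prostaglandins, the enzyme that begins their breakdown and the receptors through which they act. The genes were taken from a list of 10 symbols, PTGS1, PTGS2, PTGES, PTGES2, PTGES3, PTGIS, PTGER2, PTGER4, PTGFR and HPGD, and a gene was a member when the symbol in the expression table was identical to a listed one. The table holds 24616 genes, and 8 of the 10 symbols were found in it. PTGS2 stood there only under its older name PGHS-2 (ENSBTAG00000014127), so it is described under that name and counted apart from the 8. PTGFR, the receptor for prostaglandin F, was not analysed here.

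Prostaglandins are made from arachidonic acid, which phospholipases A2 release from membranes. The cyclooxygenases PTGS1 and PTGS2 turn it into prostaglandin H, and terminal synthases turn that common precursor into prostaglandin E, prostaglandin F, prostaglandin D or prostacyclin. The products leave the cell, act on receptors coupled to G proteins, and are taken up again and inactivated, first by HPGD. In the oviduct, prostaglandins are known to contract or relax the muscle layer and are produced in the wall around the time when gametes and the embryo pass.

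The samples came from 6 multiparous, healthy, non-lactating Nelore (Bos indicus) cows, 3 in the large follicle and large corpus luteum group (LF/LCL; cows 617, 79 and 527) and 3 in the small follicle and small corpus luteum group (SF/SCL; cows 856, 489215 and 97). Before day -10, all 6 cows had been pre-synchronized with a GnRH agonist (buserelin) and then with a prostaglandin F analog (cloprostenol). On day -10 they received an intravaginal device with 1 g of progesterone and 2 mg of estradiol benzoate. The prostaglandin F analog (0.5 mg) was given when the device was removed and again 6 h later. A GnRH agonist was given to induce ovulation on day 0. The LF/LCL cows also received the prostaglandin F analog on day -10 and lost the device 42 h before the GnRH agonist, whereas the SF/SCL cows lost it 30 h before. Each cow gave 1 RNA-seq library from the isthmus, the part of the oviduct nearest the uterus, on the side of the corpus luteum on day 4, so n was 3 cows per group. A comparison that leaves out 1 cow has 2 cows in the group it came from. The piece held the whole thickness of the wall, so fewer cells of a type and less RNA per cell cannot be told apart. The cows sequenced were those ranked highest in the LF/LCL group and lowest in the SF/SCL group for ovarian and hormonal traits, which makes the groups extremes of their treatments. All 6 had been given a prostaglandin F analog, so neither group shows the pathway without it.

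The libraries held 23899117 to 34193164 reads on genes. Values are normalized counts, that is reads divided by the size factor of the library. One SF/SCL cow, 489215, stood apart from the other 5 cows in many genes: of the 15387 genes abundant and even enough to be tested, it had the highest value of the 6 cows in 36.7% and the lowest in 35.7%. For this reason the results are given with all 6 cows and without this cow, that is with 3 LF/LCL cows and the 2 SF/SCL cows 856 and 97. In other genes cows 856 and 97 stood apart instead, with cow 489215 near the LF/LCL cows. One was OVGP1, with 271794 and 325158 normalized counts in cows 856 and 97, 730 in cow 489215 and 287 to 1950 in LF/LCL. The comparison without cow 489215 thus sets LF/LCL against those 2 cows, and cow 489215 was singled out from these same values. In the test of all 6 cows (limma on log2 of the normalized count plus 1, Benjamini-Hochberg adjusted p under 0.05), 0 genes passed, which is a background of 0%, while 1333 genes, or 8.66%, had an unadjusted p under 0.05. The quasi-likelihood test of edgeR also gave 0 genes, with 1307 at an unadjusted p under 0.05, and DESeq2 gave 416, or 2.7%. Without cow 489215, limma gave 2827 of 15495 genes, or 18.2%, of which 1600 had greater abundance in SF/SCL and 1227 in LF/LCL.

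All 8 members, and PGHS-2, were abundant enough to be tested, and 0 of the 8 passed the adjusted threshold with all 6 cows. An unadjusted limma p under 0.05 was found for 2 of the 8, PTGER4 and PTGIS, beside 8.66% of all tested genes, and the same 2 had one in edgeR. DESeq2 called 1, PTGER4, beside 2.7% of all tested genes. The values of the LF/LCL and SF/SCL cows did not overlap in 2 of the 8, PTGER4 and PTGES3, both greater in SF/SCL, beside 18.1% of all tested genes. Cow 489215 had the highest value of the 6 cows in 5 members and the lowest in 1, beside 36.7% and 35.7% of all tested genes. When the LF/LCL cows were set against cows 856 and 97 alone, 7 of the 8 did not overlap, 4 of them greater in LF/LCL and 3 greater in SF/SCL, where 52% of all tested genes did not overlap. Without cow 489215, 3 of the 8 passed the adjusted threshold, beside 18.2% of all genes tested without this cow. They were PTGIS and HPGD with greater abundance in LF/LCL and PTGER4 with greater abundance in SF/SCL. The median log2 fold change of SF/SCL over LF/LCL was -0.11 over the 8 members and -0.02 over all tested genes with 6 cows, and -0.59 and -0.000916 without cow 489215.

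**Figure D1:**
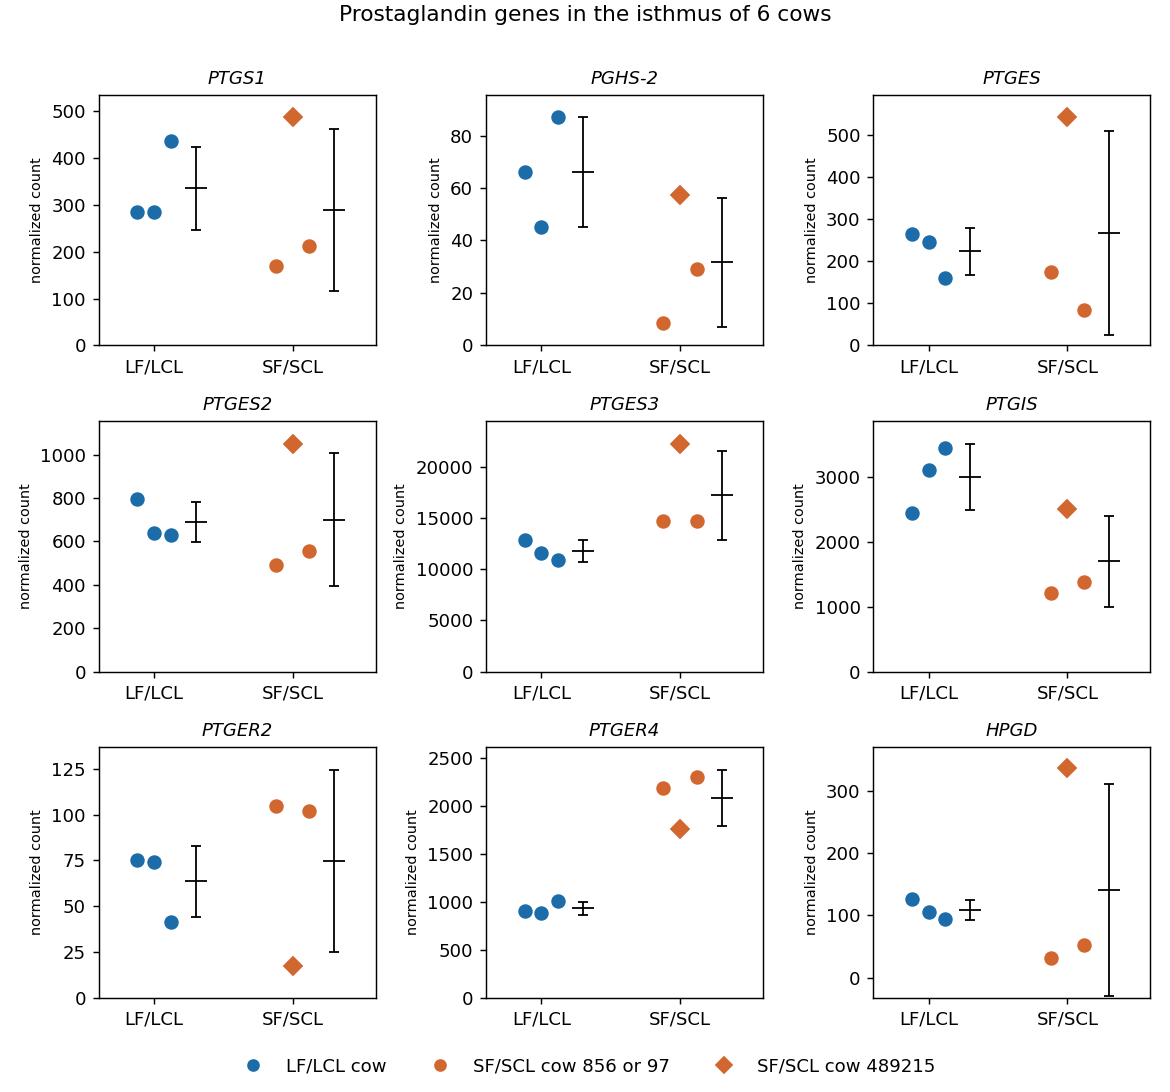
Normalized counts of the 8 members and PGHS-2 in each cow (vertical axes, linear, 1 point per cow) by group, with the mean and SD of the 3 cows of a group in black and cow 489215 drawn as a diamond. In PTGER4 all 3 SF/SCL cows lie above all 3 LF/LCL cows, and in PTGS1, PTGES, PTGES2 and HPGD cow 489215 lies above, and cows 856 and 97 mostly below, the LF/LCL cows.

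The receptor PTGER4 gave the largest separation of the groups among the members. PTGER4 (ENSBTAG00000014972) encodes the EP4 receptor for prostaglandin E, which couples to the stimulation of cyclic AMP. Its normalized count was 911 in cow 617, 883 in cow 79 and 1007 in cow 527 of LF/LCL, and 2191 in cow 856, 1756 in cow 489215 and 2306 in cow 97 of SF/SCL. Every SF/SCL cow was above every LF/LCL cow, and cow 489215 was the lowest of its group. The means were 933 ± 64.8 (SD, n = 3) for LF/LCL cows against 2085 ± 290 (SD, n = 3) for SF/SCL cows, a ratio of 2.23. The log2 fold change was 1.15 with an SE of 0.19 and a 95% interval from 0.71 to 1.59. The unadjusted limma p was 0.000552, the rank was 23 among 15387 genes, and the Benjamini-Hochberg adjusted p was 0.351, which did not pass. Without cow 489215 the log2 fold change was 1.27 (SE 0.10) with an adjusted limma p of 0.00234. With all 6 cows the adjusted p was 2.39e-05 in DESeq2. The size of the change was greater than that of 93.7% of the tested genes.

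PTGER2 (ENSBTAG00000002163) encodes EP2, the other prostaglandin E receptor that raises cyclic AMP. Its normalized count was 75.4 in cow 617, 74.2 in cow 79 and 41.3 in cow 527, against 105 in cow 856, 17.3 in cow 489215 and 102 in cow 97. Cows 856 and 97 were above all LF/LCL cows, and cow 489215 was below all of them, 5.97-fold under the mean of the other SF/SCL cows. The value of cow 489215 rests on 13 reads, with an exact 95% Poisson interval from 6.92 to 22.2 reads that covers counting error only, and the other libraries held 47 to 138 reads. The means were 63.6 ± 19.3 (SD, n = 3) for LF/LCL cows against 74.7 ± 49.7 (SD, n = 3) for SF/SCL cows, and the log2 fold change of -0.09 had a 95% interval from -1.91 to 1.72 and an adjusted limma p of 0.980. The sign of this difference of mean log2 values was opposite to the order of the mean normalized counts. Without cow 489215 the difference turned to 0.74 on the log2 scale (SE 0.35), with an adjusted limma p of 0.193. It also turned positive without LF/LCL cow 617, at 0.0514, and without LF/LCL cow 79, at 0.0399.

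The balance of both receptors was lowest in cow 489215, where PTGER2 rested on 13 reads. In this and the other ratios within a library 1 was added to each value, so the size factor cancels except for that 1. The log2 ratio of PTGER2 to PTGER4 was -3.58, -3.56 and -4.57 in cows 617, 79 and 527, and -4.37, -6.58 and -4.49 in cows 856, 489215 and 97. The means were -3.90 ± 0.58 (SD, n = 3) and -5.15 ± 1.25 (SD, n = 3), and the groups overlapped. The difference of -1.25 had a two-sided exact permutation p of 0.3, where 0.1 is the smallest p that 3 against 3 cows allow. Without cow 489215 the difference was -0.53. The absolute level of such a ratio also reflects transcript length, so only its differences between cows are described.

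Among the terminal synthases, PTGIS (ENSBTAG00000017537), which makes prostacyclin, was the member with the clearest difference in favour of LF/LCL. Its normalized count was 2435, 3104 and 3440 in cows 617, 79 and 527, and 1217, 2503 and 1379 in cows 856, 489215 and 97. Cow 489215 was slightly above LF/LCL cow 617, and this was the only overlap. The means were 2993 ± 512 (SD, n = 3) and 1699 ± 701 (SD, n = 3). The log2 fold change was -0.88 (SE 0.31, 95% interval from -1.63 to -0.13), with an unadjusted limma p of 0.0283, rank 876 of all tested genes, and an adjusted p of 0.497. Without cow 489215 the log2 fold change was -1.19 (SE 0.16) with an adjusted limma p of 0.00641. In that comparison the LF/LCL mean was 2.31-fold the mean of cows 856 and 97. DESeq2 with 6 cows gave an adjusted p of 0.296.

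The 3 prostaglandin E synthases did not all share a pattern. PTGES3 (ENSBTAG00000017967), the cytosolic form that is also known as the HSP90 co-chaperone p23, had 12900, 11575 and 10857 normalized counts in cows 617, 79 and 527, and 14703, 22267 and 14682 in cows 856, 489215 and 97. All SF/SCL cows were above all LF/LCL cows, and cow 489215 was the highest by 1.52-fold over the mean of the other SF/SCL cows. The means were 11777 ± 1036 (SD, n = 3) and 17217 ± 4373 (SD, n = 3). The log2 fold change of 0.52 (SE 0.23, 95% interval from -0.03 to 1.08) had an adjusted limma p of 0.611. Without cow 489215 the log2 fold change was 0.32 (SE 0.10), and the adjusted limma p of 0.0715 also missed the threshold.

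PTGES (ENSBTAG00000019453) encodes the inducible microsomal form. It had 264, 245 and 161 normalized counts in cows 617, 79 and 527, and 175, 542 and 84.5 in cows 856, 489215 and 97. Cow 489215 was the highest and cow 97 the lowest, so the SF/SCL group spanned the LF/LCL group entirely. The means were 223 ± 54.9 (SD, n = 3) and 267 ± 242 (SD, n = 3), and the log2 fold change of -0.12 had a 95% interval from -1.74 to 1.49 (limma adjusted p = 0.971), again with a sign opposite to the order of the mean normalized counts. This was the only member in which cows 856 and 97 alone still overlapped the LF/LCL cows. The log2 fold change was -0.84 without cow 489215 (SE 0.37, limma adjusted p = 0.171), 0.49 without SF/SCL cow 97 and 0.0133 without LF/LCL cow 617.

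PTGES2 (ENSBTAG00000016218), the membrane-associated form, had 798, 639 and 631 normalized counts in cows 617, 79 and 527, and 491, 1050.4 and 558 in cows 856, 489215 and 97. Again cow 489215 was above all LF/LCL cows while cows 856 and 97 were below them. The means were 689 ± 94.0 (SD, n = 3) and 700.0 ± 305 (SD, n = 3). The log2 fold change of -0.05 (95% interval from -0.84 to 0.74, limma adjusted p = 0.976), also opposite in sign to the order of the means, became -0.39 without cow 489215 (SE 0.15, limma adjusted p = 0.130). It turned positive without LF/LCL cow 617, at 0.0570, without SF/SCL cow 856, at 0.16, and without SF/SCL cow 97, at 0.0688.

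The balance of PTGES to PTGIS within a library was compared as a log2 ratio. It was -3.20, -3.66 and -4.41 in cows 617, 79 and 527, and -2.79, -2.21 and -4.01 in cows 856, 489215 and 97. Cows 856 and 489215 were above all LF/LCL cows and cow 97 was between them. The means were -3.76 ± 0.61 (SD, n = 3) and -3.003 ± 0.92 (SD, n = 3), with a difference of 0.75 and a two-sided exact permutation p of 0.3. The difference was 0.35 without cow 489215, 0.43 without cow 527 and 1.26 without cow 97.

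PTGS1 (ENSBTAG00000006716), the cyclooxygenase that many tissues make constantly, had 285, 284 and 437 normalized counts in cows 617, 79 and 527, and 169, 487 and 212 in cows 856, 489215 and 97. Cows 856 and 97 were the lowest of the 6 and cow 489215 the highest. The means were 336 ± 88.3 (SD, n = 3) and 289 ± 173 (SD, n = 3), and the log2 fold change was -0.34 (SE 0.45, 95% interval from -1.42 to 0.74, limma adjusted p = 0.892). Without cow 489215 it was -0.79 (SE 0.25) and did not pass, with an adjusted limma p of 0.0757. Without cow 856 the log2 fold change was -0.03, without cow 527 it was -0.13 and without cow 97 it was -0.19, so its size rested on single cows.

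PGHS-2, the cyclooxygenase that is induced by hormones and inflammation, had 65.9, 45.1 and 87.0 normalized counts in cows 617, 79 and 527, and 8.36, 57.2 and 29.3 in cows 856, 489215 and 97. Cows 856 and 97 were again the lowest, and cow 489215 was inside the LF/LCL range. The counts were small, from 11 reads in cow 856 (exact 95% Poisson interval 5.49 to 19.7 reads) to 99 reads in cow 527 (80.5 to 121). The means were 66.0 ± 21.0 (SD, n = 3) and 31.6 ± 24.5 (SD, n = 3). The log2 fold change of -1.35 (SE 0.72, 95% interval from -3.07 to 0.37) had an adjusted limma p of 0.683, and without cow 489215 it was -1.94 (SE 0.58) with an adjusted limma p of 0.0660. Without cow 856 it was -0.62 (SE 0.53), with an adjusted limma p of 0.725.

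The log2 ratio of PTGS1 to PGHS-2 did not overlap between the groups, but the gap was small. It was 2.09, 2.63 and 2.32 in cows 617, 79 and 527, and 4.18, 3.07 and 2.82 in cows 856, 489215 and 97, so that the lowest SF/SCL cow was above the highest LF/LCL cow. The means were 2.35 ± 0.27 (SD, n = 3) and 3.36 ± 0.73 (SD, n = 3). The difference of 1.01 had a two-sided exact permutation p of 0.1, the smallest that this design can give, so the test could not pass 0.05. Without cow 856 the difference was 0.60.

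HPGD (ENSBTAG00000025942), the dehydrogenase that inactivates prostaglandins E and F, varied most within SF/SCL. Its normalized count was 127, 105 and 94.9 in cows 617, 79 and 527, and 31.9, 337 and 53.1 in cows 856, 489215 and 97. Cow 489215 was 7.92-fold above the mean of cows 856 and 97, which were both below all LF/LCL cows. The means were 109 ± 16.2 (SD, n = 3) and 141 ± 170 (SD, n = 3), and the log2 fold change of -0.37 had a 95% interval from -2.42 to 1.68 and an adjusted limma p of 0.932. Here too the mean normalized counts had the opposite order. Without cow 489215 the log2 fold change was -1.37 (SE 0.33) and passed with an adjusted limma p of 0.0354, without cow 97 it was -0.05, and without cow 856 it turned to 0.31. The LF/LCL mean was 2.56-fold the mean of cows 856 and 97.

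The log2 ratio of PGHS-2 to HPGD, the inducible step of synthesis against the first step of breakdown, was -0.93, -1.20 and -0.12 in cows 617, 79 and 527, and -1.81, -2.54 and -0.84 in cows 856, 489215 and 97. Cows 856 and 489215 were below all LF/LCL cows, and cow 97 was between cows 617 and 527. The means were -0.75 ± 0.56 (SD, n = 3) and -1.73 ± 0.85 (SD, n = 3), and the difference of -0.98 had a two-sided exact permutation p of 0.3. It was -0.57 without cow 489215. Altogether 4 such ratios were compared, and each exact p is unadjusted.

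**Figure D2:**
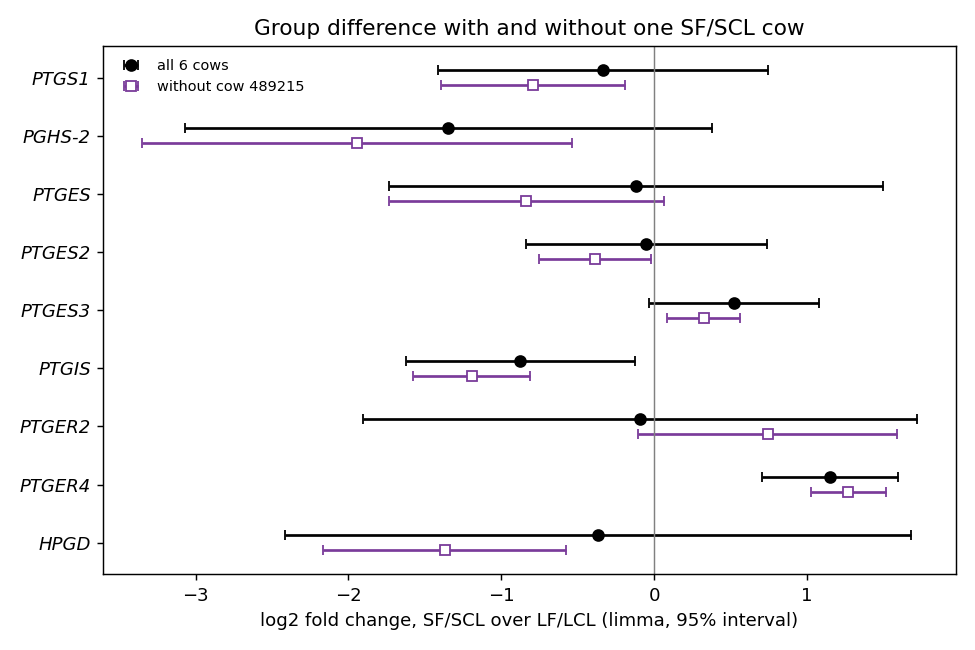
Log2 fold change of SF/SCL over LF/LCL with its 95% interval from limma (horizontal axis) for the 8 members and PGHS-2, with all 6 cows as filled circles and without cow 489215 as open squares. With 6 cows, the intervals of PTGER4 (0.71 to 1.59) and PTGIS (-1.63 to -0.13) do not include 0, and the interval of HPGD is the widest.

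The members varied more among the SF/SCL cows than among the LF/LCL cows. The SD of the log2 values was larger in SF/SCL for 8 of 8 members, with a range from 0.0986 to 0.486 in LF/LCL and from 0.209 to 1.77 in SF/SCL. PTGER4 had the smallest SD in both groups, and HPGD had the largest in SF/SCL. The same direction was found in 82.2% of all tested genes, with median SDs of 0.174 in LF/LCL and 0.532 in SF/SCL, so the larger spread was not particular to the members. Cow 489215 was 4.18-fold above the mean of cows 856 and 97 in PTGES, 3.04-fold in PGHS-2, 2.56-fold in PTGS1, 2.00-fold in PTGES2 and 1.93-fold in PTGIS.

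For each member, the gene most like it over the 6 libraries was found by Pearson's r of the log2 values among the other 15386 tested genes. With 6 libraries, many genes reach a high r, so each is given as a description with the number of genes over 0.95. PTGER4 was most like HSD17B4 (r = 0.997), a peroxisomal enzyme of fatty acid oxidation, among 109 genes over 0.95. HPGD was most like TM4SF5 (r = 0.999, 476 genes) and PTGES2 most like ZNF394 (r = 0.997, 460 genes). PTGIS was most like LEPRE1 (r = 0.994, 121 genes), a collagen prolyl hydroxylase. PTGER2 was most like CCDC134 (r = 0.996, 285 genes), and PTGES most like MGC143209 (r = 0.997, 151 genes). PGHS-2 was most like ADRA1D (r = 0.996, 66 genes), an adrenergic receptor. The nearest genes of PTGS1 (r = 0.998, 88 genes) and PTGES3 (r = 0.998, 257 genes) carried no symbol. No 2 members had the same nearest gene.

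Other genes of the pathway were taken from 4 lists with 47 symbols, of which 37 genes were in the table and 23 could be tested. Of those 23, 0 passed the adjusted threshold in limma with 6 cows, 2 had an unadjusted p under 0.05, both with greater values in LF/LCL, beside 8.66% of all tested genes, and 6 had groups that did not overlap, beside 18.1%. Their median log2 fold change was -0.16. Without cow 489215, 7 of them passed, 5 with greater abundance in LF/LCL and 2 with greater abundance in SF/SCL, beside 18.2% of all genes tested without this cow. Of the 14 genes that could not be tested, 8 had a mean of 5 or less and 6 varied by more than their mean.

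Among the other receptors, all 6 found genes were tested, and the pair with an unadjusted p under 0.05 was PTGDR and PTGFRN. PTGDR (ENSBTAG00000006703), a receptor for prostaglandin D, had 64.9, 86.4 and 63.2 normalized counts in cows 617, 79 and 527, and 27.3, 35.9 and 22.8 in cows 856, 489215 and 97. No SF/SCL cow reached the LF/LCL range, cow 489215 included, and the log2 fold change was -1.30 (SE 0.37) with an unadjusted limma p of 0.0103 and an adjusted p of 0.412. DESeq2 gave an adjusted p of 0.0260. PTGFRN (ENSBTAG00000008022), a membrane protein known to bind and inhibit the prostaglandin F receptor, had 4262, 5288 and 6429 normalized counts in cows 617, 79 and 527, and 2581, 885 and 3010 in cows 856, 489215 and 97. The groups did not overlap, with cow 489215 the lowest, and the log2 fold change was -1.47 (SE 0.48) with an unadjusted limma p of 0.0197 and an adjusted p of 0.461. Without cow 489215, PTGDR had a log2 fold change of -1.47 (limma adjusted p = 0.0282) and PTGFRN one of -0.91 (limma adjusted p = 0.0193).

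Among the phospholipases A2, 7 of 19 genes found could be tested, and PLA2G15, a lysosomal member, was the tested one without overlap. It had 158, 137 and 133 normalized counts in LF/LCL cows 617, 79 and 527, and 129, 129 and 122 in SF/SCL cows 856, 489215 and 97, a log2 fold change of -0.16 with an adjusted limma p of 0.908. PLA2G10, a secreted member, varied too much for the test with 6 cows, with 1337, 1796 and 1248 normalized counts in LF/LCL and 239, 5954 and 397 in cows 856, 489215 and 97. Cow 489215 was thus far above, and cows 856 and 97 far below, all LF/LCL cows. Without cow 489215 it could be tested and passed, beside the 7 genes counted above, with a log2 fold change of -2.22 (SE 0.25) and an adjusted limma p of 0.00411. PLA2G4D was untested as well and was described after its values were seen. It had 92.1, 31.9 and 83.4 normalized counts in LF/LCL, and 1670.3, 7.99 and 1190.0 in cows 856, 489215 and 97, which is the opposite order. PLA2G4A, the cytosolic enzyme best known for releasing arachidonic acid, also named after its values were seen, had 1471, 1200 and 1333 normalized counts in LF/LCL and 1467, 1852 and 1449 in SF/SCL, with overlap. PLA2G1B did not overlap either and was untested, with 0 to 1.05 normalized counts in LF/LCL and 1.52, 1.33 and 36.8 in SF/SCL. These were 1, 0 and 0 reads in cows 617, 79 and 527 and 2, 1 and 34 reads in cows 856, 489215 and 97. The lack of overlap thus sets 1 read in cow 617 against 1 read in cow 489215, made unequal only by the size factors.

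Among the other synthases, 5 of 7 genes found could be tested. PTGDS, a prostaglandin D synthase, had 4534, 3805 and 2784 normalized counts in cows 617, 79 and 527, and 1445, 5340 and 1940 in cows 856, 489215 and 97. Cow 489215 was again the highest and cows 856 and 97 the lowest, and the log2 fold change was -0.56 (limma adjusted p = 0.842), or -1.12 without cow 489215 (limma adjusted p = 0.0208). AKR1B1, an aldo-keto reductase with prostaglandin F synthase activity in cattle, was chosen after its values were seen because its order was the same, with 2525, 1999 and 3178 normalized counts in LF/LCL and 586, 4075 and 499.6 in cows 856, 489215 and 97. Its log2 fold change was -1.25 (limma adjusted p = 0.754), or -2.22 without cow 489215 (limma adjusted p = 0.00251). TBXAS1, the thromboxane synthase, did not overlap, with 24.1, 17.8 and 20.2 normalized counts in LF/LCL and 28.9, 30.6 and 27.1 in SF/SCL, a log2 fold change of 0.47 (limma adjusted p = 0.818).

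Transport and later breakdown held 5 genes, all tested. SLCO2A1, the transporter that carries prostaglandins into cells, had 219, 352 and 199 normalized counts in cows 617, 79 and 527 and 142, 166 and 174 in cows 856, 489215 and 97, without overlap. Its log2 fold change was -0.63 with an unadjusted limma p of 0.0883 and an adjusted p of 0.650. PTGR2, a reductase of the metabolites that HPGD forms, had 2715, 2606 and 2401 normalized counts in LF/LCL and 2716, 3253 and 2728 in SF/SCL, without overlap by the smallest margin, and a log2 fold change of 0.17 (limma adjusted p = 0.859). ABCC4, which exports prostaglandins and cyclic nucleotides, was chosen after its values were seen. It had 112, 115 and 111 normalized counts in LF/LCL, and 646, 50.6 and 539 in cows 856, 489215 and 97. Its log2 fold change was 1.21 (limma adjusted p = 0.821), or 2.38 without cow 489215 (limma adjusted p = 0.00205), and cow 489215 was 11.7-fold below the mean of the other SF/SCL cows.

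**Figure D3:**
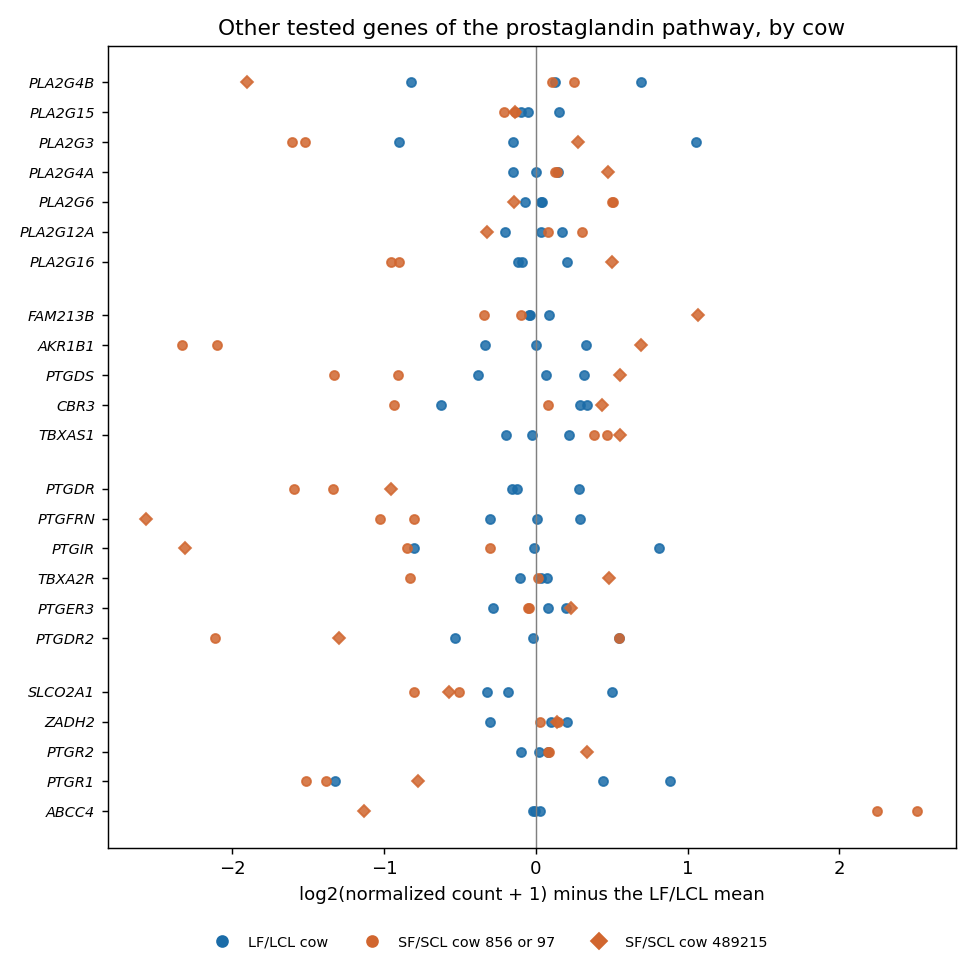
Log2 of the normalized count plus 1 minus the mean of the LF/LCL cows (horizontal axis) for the 23 tested genes of the 4 pathway lists, 1 point per cow, grouped from top to bottom into phospholipases A2, other synthases, other receptors, and transport and breakdown. Cow 489215, drawn as a diamond, lies apart from cows 856 and 97 in AKR1B1 and PTGDS, where it is higher, and in ABCC4, where it is lower, while all SF/SCL cows lie below the LF/LCL cows in PTGDR and PTGFRN.

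The cell makeup of the pieces was read from summed normalized counts of 9 marker lists. The smooth muscle list (8 of 10 genes found) summed to 728721 to 847464 in LF/LCL, and to 339479, 1227280 and 399048 in cows 856, 489215 and 97, so that the tissue carried abundant muscle transcripts in every cow. This is the order that PTGS1, PTGES2, HPGD and AKR1B1 also had, with cow 489215 above and cows 856 and 97 below the LF/LCL cows. Cow 489215 was the highest in 5 of the 8 smooth muscle genes, beside 36.7% of all tested genes. The exceptions did not share the order of the sum. SYNPO2 was lowest of the 6 cows in cow 489215, at 9453 normalized counts. MYH11 was at 116653 in cow 489215, below the LF/LCL range of 137623 to 191119. LMOD1 was at 10359 in cow 489215, inside the LF/LCL range of 9956 to 11583. The fibroblast list, with 8 of 8 genes found, summed to 298239 to 373485 in LF/LCL and to 154928, 214733 and 162585 in cows 856, 489215 and 97. PTGIS had this order except for the overlap of cows 489215 and 617. Not every fibroblast gene had it: cow 489215 was the lowest of the 6 in LUM and PI16, at 3462 and 2492 normalized counts. In MFAP5 and DPT, LF/LCL cow 617 was at 4102 and 1771, below cow 489215 at 4816 and 2737. Of the 8 fibroblast genes, 5 had an unadjusted limma p under 0.05, all greater in LF/LCL, beside 8.66% of all tested genes in either direction.

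The epithelial list (9 of 10 genes found) summed to 30205 to 47469 in LF/LCL and to 51187, 75022 and 58087 in cows 856, 489215 and 97, and 5 of its 9 genes, EPCAM and KRT8 among them, had an unadjusted limma p under 0.05, all greater in SF/SCL, beside the same 8.66%. ELF3 and CLDN4 of this list had log2 fold changes of -0.54 and -0.07, with cows 856 and 97 at 529 and 612 normalized counts of ELF3, below the LF/LCL range of 773 to 2016. PTGES3 had this order, and PTGER4 was greater in the same cows but not highest in cow 489215. The ciliated list (10 of 10 genes found) summed to 31905 to 40704 in LF/LCL and to 53758, 31403 and 57977 in cows 856, 489215 and 97. Cow 489215 was the lowest of the 6 cows in 4 of the 10 genes, beside 35.7% of all tested genes. In CCDC39 and DNAI1 cow 489215 was above the LF/LCL range, at 1744 against 1436 to 1706 and at 783 against 475 to 588. It was inside the LF/LCL range in RSPH1, TEKT2 and SPAG6. CAPS did not share the order of the sum either, with 16551 to 21404 normalized counts in LF/LCL and 16579, 19117 and 19493 in cows 856, 489215 and 97. PTGER2 and ABCC4 were high in cows 856 and 97 and lowest of the 6 in cow 489215. The secretory list (6 of 6 genes found) summed to 11727 to 13348 in LF/LCL and to 283234, 37061 and 337868 in cows 856, 489215 and 97. In cows 856 and 97 almost all of this came from OVGP1, the oviductal glycoprotein, with 271794 and 325158 normalized counts in cows 856 and 97, 730 in cow 489215 and 287 to 1950 in LF/LCL. MSX1 of the same list had the opposite order, with 125 and 461 normalized counts in cows 856 and 97, 2739 in cow 489215 and 1228 to 1721 in LF/LCL. In cow 489215 most of the sum came from WFDC2, at 29355 normalized counts. WFDC2 was at 5296 and 7026 in cows 856 and 97 and at 4795 to 7166 in LF/LCL.

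The mesothelial list (6 of 6 genes found, 0 of them testable) summed to 2872 to 3327 in LF/LCL and to 28192, 3513 and 27411 in cows 856, 489215 and 97, with MSLN and WT1 holding most of it and CALB2, a defining marker, at 0 to 6.84. LRRN4 of this list went against the sum, with 283, 412 and 175 normalized counts in cows 617, 79 and 527 and 3.80, 5.33 and 16.3 in cows 856, 489215 and 97. UPK3B did not share the order of the sum either, with 92.1, 326 and 87.0 in cows 617, 79 and 527 and 37.2, 141 and 626 in cows 856, 489215 and 97. The endothelial list (7 of 8 genes found) summed to 13671 to 17561 in LF/LCL and 11347 to 16743 in SF/SCL, and the leukocyte list (8 of 8 genes found) to 2121 to 3635 and 2098 to 3239, both with overlap. The mast cell list (6 of 6 symbols found) summed to 4119 to 5746 and 4520 to 7417. Its largest part was KIT and GATA2, which other cells of the wall also express, while HDC was at 0 to 25.5 and MS4A2 at 0 to 4.34 normalized counts. KIT was at 4827 and 4563 in cows 856 and 97, 481 in cow 489215 and 638 to 936 in LF/LCL. The 5 tested rows of the list, without KIT, all had negative log2 fold changes, against the direction of the highest sums. The part of cell makeup in the differences of the prostaglandin genes was not tested.

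**Figure D4:**
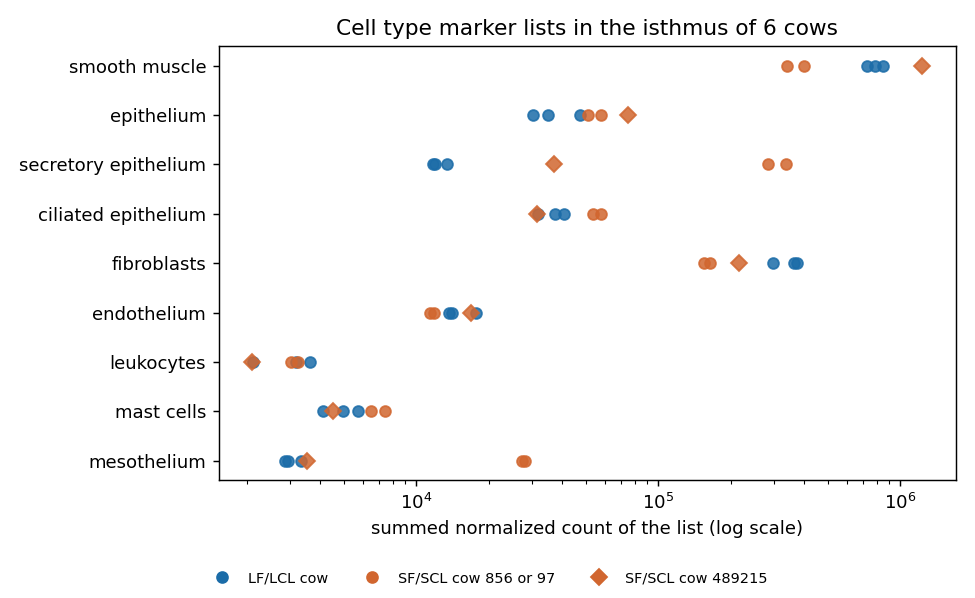
Summed normalized count of each of the 9 marker lists (horizontal axis, logarithmic) in each of the 6 cows. Cows 856 and 97 lie close together in every list, and cow 489215 lies apart from them in smooth muscle (1227280 against 339479 and 399048), in secretory epithelium (37061 against 283234 and 337868) and in mesothelium (3513 against 28192 and 27411). The secretory sums of cows 856 and 97 are almost all OVGP1 (271794 and 325158), and most of that of cow 489215 is WFDC2 (29355).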

How the data were processed

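Isthmus RNA of 6 cows was sequenced as poly(A) libraries with paired-end reads. The authors filtered the reads, aligned them to the masked bovine assembly UMD3.1 with TopHat2 2.0.8 and Bowtie2 2.1.0, counted reads per Ensembl gene with HTSeq 0.5.4p2 and divided the counts by DESeq 1.12.1 size factors; whether counting used the strand is not given in the sources used here. The deposited signal values are these normalized counts. They were whole multiples of 1 read in 100% of values (tolerance 0.1 reads), which gave the reads and size factors back.

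The test covered the 15387 of 24616 genes whose mean exceeded both 5 and the SD, with limma 3.58.1 in R 4.3.3 (trend and robust) on log2(value + 1), SF/SCL minus LF/LCL. A fold change on this scale understates that of low genes and, as a difference of mean log2 values, can differ in sign from the difference of mean values. As alternatives, the reads were tested with edgeR 4.0.16 and with DESeq2 1.42.0, beside other pseudocounts, filters, scalings, array weights and the omission of each cow. Scripts were tested on simulated data. The p-values measure the spread between cows.

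All members were named. Pathway genes were named when the unadjusted p was under 0.05, when the groups did not overlap or when their mean was the highest of the list. Other names were chosen after the values were seen. Members and lists were chosen with earlier results of these data known. No gene positions, lengths or sequences of the assembly were used, so levels were not compared between genes, except that the naming rule ranks mean values that are not corrected for length.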

Additional observations from a re-analysis of the deposited data

How the results depend on the processing

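Of the results with all 6 cows, the counts depended most on the tool and on cow 489215. The number of genes past the threshold was 0 with limma, 416 with DESeq2 and 4581 with array weights (whose estimate stopped before convergence and gave cow 489215 a weight of 0.0477), and it ranged from 0 to 2827 on omitting each cow in turn. The number of prostaglandin genes was 0, 1, 6 and 0 to 3 in the same order. The value above 0 among the omissions came from cow 489215 in both cases. Both edgeR fits, TMM rescaling, the other pseudocounts and the other filters gave 0 for both counts.

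PTGER4 and PTGES3 stayed positive, and PTGIS, PTGS1 and PGHS-2 negative, under every alternative run. The other log2 fold changes changed sign under some. With edgeR (TMM) PTGER2 was 0.22, PTGES 0.21 and HPGD 0.31. With edgeR on DESeq2 size factors PTGER2 was 0.24, PTGES2 0.0215, PTGES 0.26 and HPGD 0.36, and with DESeq2 they were 0.24, 0.0193, 0.25 and 0.36. Array weights gave 0.62 for PTGER2. Leaving out each cow gave -0.52 to 0.74 for PTGER2, -0.39 to 0.16 for PTGES2, -0.84 to 0.49 for PTGES and -1.37 to 0.31 for HPGD. The cause was not tested. The ratio differences kept their sign when each cow was left out. No paired analysis was possible because the groups share no cow number. Depth limits PTGER2 and PGHS-2 most, with as few as 13 and 11 reads in a library.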
